A study of Homo sapiens with 2 samples.

Results

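The 9 enzymes described here make or interconvert asparagine, glutamine, proline, ornithine, glutamate, aspartate, alanine and the branched-chain amino acids. They were chosen by name, as ASNS, GLUL, ALDH18A1, PYCR1, OAT, GOT1, GOT2, GPT2 and BCAT1, and all 9 were found among the 57485 genes listed for each library. The RNA-seq data were 2 libraries of the human multiple myeloma (MM) line ARP1, 1 library for each condition. Both carried a lentiviral shRNA that doxycycline (Dox) switches on from the TRIPZ vector; the cells were left untreated for 1 library and treated with Dox for the other. The title of each library names SRD5A1 as the target of the hairpin, whereas SRD5A2 stands in the genotype given for the Dox-treated cells. The dose and the duration of Dox for these libraries are not given in the sources used here, and Dox alone and the induced hairpin cannot be told apart, since both libraries come from cells with the hairpin. With 1 library per condition no difference has a replicate check, and no p-value is given.

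Glutamate stands at the centre of this network. GLUL adds ammonia to it to make glutamine, and ALDH18A1 and PYCR1 turn it into proline in the mitochondrion by way of pyrroline-5-carboxylate, which OAT also forms from ornithine. The transaminases GOT1, GOT2, GPT2 and BCAT1 pass amino groups between glutamate and 2-oxoglutarate on the one side and aspartate, alanine or the branched-chain amino acids on the other, and ASNS converts aspartate to asparagine with glutamine as the nitrogen donor. When amino acids run short or the endoplasmic reticulum is stressed, the transcription factor ATF4 is known to bind C/EBP-ATF composite elements, of which the one in the ASNS promoter is a textbook case.

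The expected counts, which are reads assigned to a gene by estimation, summed to 45918570 without Dox and 48728927 with Dox. The 9 enzymes took 0.0869% and 0.185% of them. SRD5A1, the targeted gene, was listed at 13.04 FPKM (fragments per transcript length and library size) without Dox and 25.88 FPKM with Dox, a log2 ratio of 0.98 (95% counting interval 0.89 to 1.08), against the direction of its label. Every direction below therefore rests on the labels of the 2 libraries, and "with Dox" stands for the library so labelled. SRD5A2 was listed with 6 and 19 counts, and SRD5A3 at 5.68 and 4.51 FPKM. All 8 plasma cell markers examined were above 1 FPKM in both libraries, with a summed level of 2398 FPKM without Dox and 2305 FPKM with Dox, while 9 markers of B, T, myeloid and stromal cells summed to 2.36 and 2.17 FPKM and CD3D was at 0 counts in both. Among the plasma cell markers TNFRSF17 and SLAMF7 rose more than 2-fold (log2 ratios 1.06 and 1.40), while SDC1 was at -0.54. Of the other markers only PAX5, a B cell gene, reached 1 FPKM, at 1.32 without Dox and 0.79 with Dox. The part of these markers in the levels of the enzymes was not tested. In such bulk RNA, fewer cells of a kind and less RNA per cell cannot be told apart.

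To show the sequences near the starts of these genes, RefSeq promoter windows (GRCh38.p14, 250 bases before to 50 after a transcript start) were searched for the core of the C/EBP-ATF composite element, TGATGNAA on either strand, and for the E-box CACGTG, which MYC with its partner MAX and other factors bind. Windows were at hand for 7 enzymes, with 13 starts in all, and not for PYCR1 and GPT2. The starts were unevenly spread, with the most at BCAT1, and a gene with more windows has more chances to hold a match. The core was found before a start of 3 enzymes, ASNS, GOT1 and BCAT1, of the 7; of all 27305 genes with a window, 4.46% held it in at least 1 window, and of all 35116 windows 3.62%. An E-box was found in 2 of the 7, before the start of ALDH18A1 and after a start of BCAT1; 8.77% of all genes with a window and 7.26% of all windows held it. Each stretch is 30 bases on the strand of the gene, 5′ to 3′, with the match in capitals, and is shown because it holds the match.
ASNS (chr7:97872458-97872487, reverse strand): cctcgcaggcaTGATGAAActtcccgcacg
GOT1 (chr10:99430804-99430833, reverse strand): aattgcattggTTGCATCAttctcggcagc
BCAT1 (chr12:24949131-24949160, reverse strand): tgtcttcctgcTGATGCAAtccgctaggtc
ALDH18A1 (chr10:95656830-95656859, reverse strand): gggctggcccgcCACGTGgagcgctggctt
Counted back from the transcript start, the match began at base -68 in ASNS, -198 in GOT1, where it lies on the opposite strand, -48 in BCAT1 and -136 in ALDH18A1. The windows of GLUL, OAT and GOT2 held neither set of letters. A match is a description of letters and not a shown binding site.

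Differences were computed as the log2 ratio of the FPKM with Dox plus 0.1 over the FPKM without Dox plus 0.1, for the 14859 genes that reached 1 FPKM in either library, and a gene was called where it differed by more than 2-fold. All 9 enzymes were among these genes. Of them, 5 rose more than 2-fold with Dox, namely BCAT1, GPT2, ASNS, GOT1 and PYCR1, beside 17.0% of all tested genes. GLUL fell more than 2-fold, beside 6.41% of all tested genes, and ALDH18A1, OAT and GOT2 were lower by less than 2-fold. The median log2 ratio of the 9 enzymes was 1.54, and that of all tested genes was 0.15. The enzymes thus lay on both sides of that median, and none had a log2 ratio strictly between -0.78 and 1.54. The 5th and 95th percentiles of all tested genes were -1.12 and 1.97. Only BCAT1, GPT2, ASNS and GLUL lay outside these.

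The split depends in part on the scaling. With the trimmed mean of M-values (TMM) factors of edgeR applied to the counts, the median of all tested genes moved by -0.19 to -0.04 on the log2 scale, and all 4 of the lower enzymes were then past 2-fold, beside 9.12% of all tested genes. The same 5 enzymes were more than 2-fold higher under this scaling, beside 12.2% of all tested genes. Of all called genes, 72.6% were higher by FPKM and 57.3% with the TMM factors. Relative to the median of all tested genes, GOT2 lay at -1.14 by FPKM and -1.15 with the TMM factors, so its distance from that median was nearly the same. This did not hold for every member. ALDH18A1 went from -0.93 by FPKM to -1.02 with the TMM factors, and PYCR1 from 1.39 to 1.20, while BCAT1 moved further above the median. Counts, unlike FPKM, are not divided by transcript length, so this comparison changes more than the scaling factor.

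ASNS, which makes asparagine, was the enzyme with the highest level in the library labelled with Dox. The gene (ENSG00000070669.16) lies on the reverse strand of chromosome 7 from 97852118 to 97872542; this and the other gene positions are those of GENCODE release 29 on GRCh38. It was listed with 5503.3 counts and 78.04 FPKM without Dox and with 32372.7 counts and 464.66 FPKM with Dox. The level was 5.95-fold higher with Dox, a log2 ratio of 2.57 (95% counting interval 2.53 to 2.61), above 97.4% of the tested genes. In the order of levels per length, ASNS stood behind PYCR1 and GOT2 without Dox and ahead of all the others with Dox. Its share of their summed TPM (a length-scaled share of each library) went from 15.1% to 36.8%. ASRGL1, an enzyme that breaks asparagine down, was listed with 1 and 11.69 counts and ASPG, another asparaginase, with 1 and 0 counts, too few for a ratio.

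GLUL, glutamine synthetase, moved the other way. The gene (ENSG00000135821.18) lies on the reverse strand of chromosome 1 from 182381704 to 182392206. It was listed with 2082 counts and 25.52 FPKM without Dox and with 861 counts and 9.38 FPKM with Dox. The level was 2.70-fold lower with Dox, a log2 ratio of -1.43 (interval -1.55 to -1.32), and only 2.73% of the tested genes lay below it. GLUD1, the mitochondrial glutamate dehydrogenase, was listed at 59.93 and 56.13 FPKM, a log2 ratio of -0.09. GFPT1, which spends glutamine on hexosamine synthesis, rose from 11.97 to 32.36 FPKM, a log2 ratio of 1.43.

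The proline enzymes did not move together. PYCR1, a mitochondrial reductase of the last step (ENSG00000183010.16, chromosome 17 from 81932384 to 81942412, reverse strand), was listed with 6645 counts and 138.14 FPKM without Dox and with 18299.6 counts and 402.38 FPKM with Dox. The log2 ratio was 1.54 (interval 1.5 to 1.58), a 2.91-fold rise. ALDH18A1, which carries out the first steps from glutamate (ENSG00000059573.8, chromosome 10 from 95605929 to 95656706, reverse strand), was listed with 7273 counts and 58.52 FPKM without Dox and with 4279 counts and 34.09 FPKM with Dox. Its log2 ratio was -0.78 (interval -0.83 to -0.72), or 1.71-fold lower. ALDH18A1 and PYCR1 thus had opposite signs, and of the 3 proline and ornithine enzymes among the members PYCR1 alone was higher with Dox.

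OAT, the mitochondrial ornithine aminotransferase (ENSG00000065154.11, chromosome 10 from 124397303 to 124418976, reverse strand), was close to ALDH18A1 in both libraries. It was listed with 5142 counts and 64.16 FPKM without Dox and with 2935 counts and 34.38 FPKM with Dox. The log2 ratio was -0.90 (interval -0.96 to -0.83), or 1.86-fold lower. With Dox, the levels of OAT (33.15 to 35.65 FPKM by counting error) and ALDH18A1 (33.08 to 35.13 FPKM) could not be told apart. ALDH18A1 and OAT, which form pyrroline-5-carboxylate from glutamate and from ornithine, were thus lower with Dox, while PYCR1, a reductase that consumes it, was higher. This holds for these 3 members, and other genes that form or consume it are given below. The summed TPM of ALDH18A1, PYCR1 and OAT went from 286 to 552, that is 1.93-fold.

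Among the other genes of the proline and ornithine steps, PYCR3, a cytosolic paralog of PYCR1, fell from 8.69 to 4.21 FPKM. Its log2 ratio was -1.03 (interval -1.20 to -0.86), so that the interval spans the 2-fold line. PRODH, which oxidises proline, was listed with 9.18 and 5.21 counts, too few for a ratio. ALDH4A1, which oxidises pyrroline-5-carboxylate to glutamate, was listed at 5.21 and 5.38 FPKM. ODC1, which takes ornithine into the polyamines, fell from 787.62 to 356.49 FPKM (log2 ratio -1.14). Of the 10 genes of this kind, 6 were tested, of which 0 rose and 2 fell more than 2-fold. Over all tested genes the shares were 17.0% and 6.41%.

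The pair of aspartate transaminases exchanged places. GOT1, the cytosolic enzyme (ENSG00000120053.11, chromosome 10 from 99396870 to 99431569, reverse strand), was listed with 2955 counts and 54.82 FPKM without Dox and with 10735 counts and 171.05 FPKM with Dox. The log2 ratio was 1.64 (interval 1.58 to 1.7), a 3.12-fold rise. GOT2, the mitochondrial enzyme (ENSG00000125166.12, chromosome 16 from 58707131 to 58734357, reverse strand), was listed with 8121 counts and 82.01 FPKM without Dox and with 4378 counts and 41.43 FPKM with Dox. Its log2 ratio was -0.98 (interval -1.04 to -0.93), or 1.98-fold lower, so that the counting interval spans the 2-fold line. The level of GOT1 was 0.668 times that of GOT2 without Dox and 4.13 times with Dox.

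GOT1 and GOT2 work together in the malate-aspartate shuttle, which carries reducing equivalents into the mitochondrion. Of the 7 other genes of the shuttle and of glutamate carriers, 6 were tested, and 0 rose and 1 fell more than 2-fold. Over all tested genes the shares were 17.0% and 6.41%. MDH1, the cytosolic malate dehydrogenase, was listed at 159.79 and 160.99 FPKM, whereas MDH2, its mitochondrial counterpart, was listed at 253.43 and 139.56 FPKM (log2 ratio -0.86). SLC25A22, a mitochondrial glutamate carrier, fell from 63.79 to 23.86 FPKM (log2 ratio -1.41). The aspartate-glutamate carriers SLC25A12 and SLC25A13 had log2 ratios of 0.26 and -0.53. The ratio of GOT1 to GOT2 thus changed 6.18-fold, and that of MDH1 to MDH2 went the same way, but 1 library per condition gives no test of such a difference.

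GPT2, the mitochondrial alanine transaminase (ENSG00000166123.13, chromosome 16 from 46884378 to 46931297, forward strand), was listed with 1703.05 counts and 12.91 FPKM without Dox and with 11469 counts and 88.61 FPKM with Dox. The log2 ratio was 2.77 (interval 2.7 to 2.84), a 6.82-fold rise, above 97.8% of the tested genes. Its cytosolic paralog GPT stayed under 1 FPKM in both libraries, with 37 and 67 counts. The level of GPT2 was 20.2 times that of GPT without Dox and 93.3 times with Dox. GPT2 was thus the main alanine transaminase RNA in both libraries, and went from rank 8 to rank 4 among the 9 enzymes by level.

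BCAT1, the cytosolic branched-chain transaminase (ENSG00000060982.14, chromosome 12 from 24810022 to 24949459, reverse strand), had the lowest level of the 9 enzymes without Dox and, with 0.1 FPKM added, the highest log2 ratio. With 1 FPKM added its log2 ratio was 2.54, below those of GPT2 (2.69) and ASNS (2.56). It was listed with 485 counts and 2.21 FPKM without Dox and with 4687 counts and 17.62 FPKM with Dox. The log2 ratio was 2.94 (interval 2.8 to 3.08), a 7.67-fold rise, above 98.1% of the tested genes. Its mitochondrial paralog BCAT2 was listed at 72.77 and 47.87 FPKM (log2 ratio -0.60). The level of BCAT2 was 32.9 times that of BCAT1 without Dox and 2.72 times with Dox, so the mitochondrial enzyme kept the higher RNA level in both. Downstream of both, the branched-chain keto acid dehydrogenase subunits BCKDHA, BCKDHB and DBT had log2 ratios of -0.01, 0.32 and 0.31, and BCKDK, the kinase that inhibits the complex, -0.72.

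**Figure D1:**
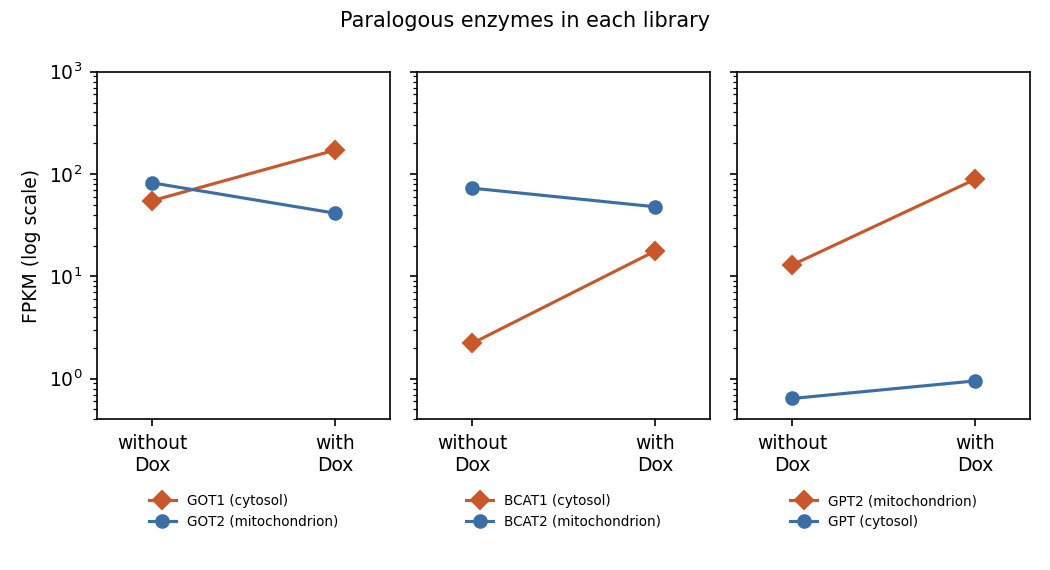
FPKM (log scale) of 3 pairs of paralogous enzymes in the library without and the library labelled with Dox, 1 library each, with the compartment of each enzyme in the key. The lines of GOT1 and GOT2 cross, BCAT1 stays below BCAT2 (17.62 against 47.87 FPKM with Dox), and GPT stays below 1 FPKM.

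By log2 ratio, with 0.1 FPKM added, the order was BCAT1, GPT2, ASNS, GOT1, PYCR1, ALDH18A1, OAT, GOT2 and GLUL. The counting intervals of BCAT1 and GPT2 overlapped, as did those of GOT1 and PYCR1, of ALDH18A1 and OAT, and of OAT and GOT2. Overlap of the intervals does not show that the values are alike, and with 1 library per condition the order of these neighbours was not tested. By level, PYCR1 led without Dox at 138.14 FPKM and BCAT1 was last at 2.21 FPKM; with Dox, ASNS led at 464.66 FPKM and GLUL was last at 9.38 FPKM. The summed TPM of the 9 enzymes went from 566 to 1483, a 2.62-fold rise, and ASNS and PYCR1 together made up most of it in the library labelled with Dox, with 36.8% and 31.8%. OAT, ALDH18A1 and GOT2, with 12.4%, 11.3% and 15.9% of the sum without Dox, held 2.72%, 2.70% and 3.28% with Dox.

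**Figure D2:**
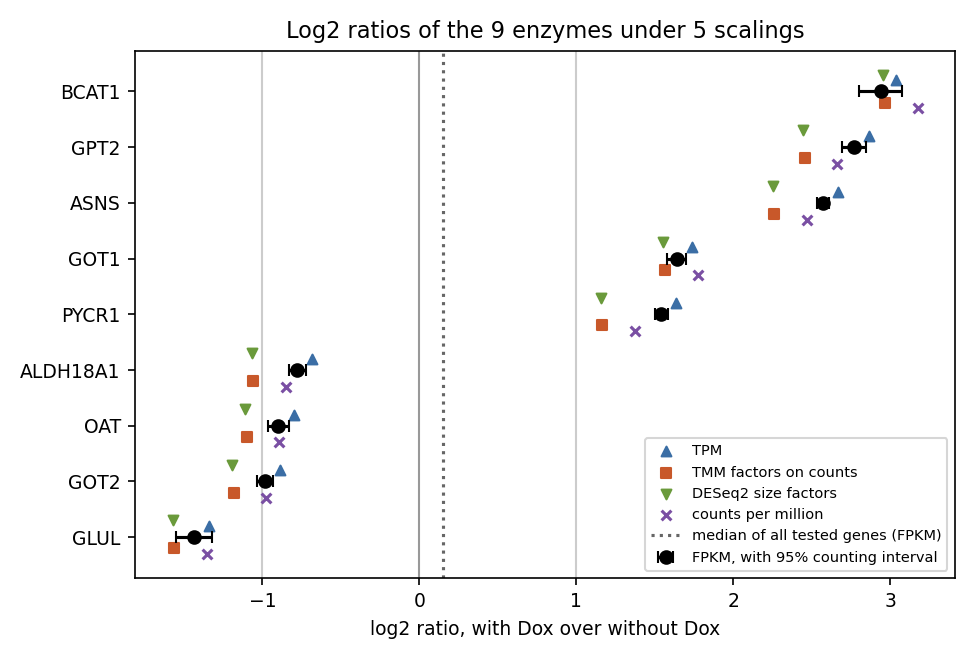
Log2 ratios with Dox over without Dox (horizontal axis) of the 9 enzymes, by FPKM with the 95% counting interval of the counts (black) and under 4 other scalings (coloured marks), with the median of all tested genes by FPKM (dotted) and thin lines at 2-fold. The 5 enzymes on the right stay past 2-fold under all 5 scalings, and ALDH18A1, OAT and GOT2 cross the lower line with the TMM factors and the DESeq2 size factors.

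The assignment of reads to transcripts bears on a few of these values. FPKM divides the counts by an effective length, which is a mean over the transcripts estimated to be present in a library. For PYCR1 the effective length went from 1047.56 to 933.29 bases, and its log2 ratio was 1.38 by counts over the library total and 1.54 by FPKM. For BCAT1 the effective length went from 4772.49 to 5459.94 bases, and its log2 ratio was 3.19 by counts and 2.94 by FPKM. The other 7 enzymes differed by at most 0.13 in the log2 of their effective length. Near-identical copies took few reads, as 12 pseudogenes named after ASNS, GLUL or GOT2 held at most 4 counts without Dox and 13 with Dox. The labels do not say whether the libraries keep the strand. Among genes that overlap a member in position, which were looked up after the values had been seen, AC079781.5 at ASNS held 39.97 and 115.8 counts, AL391684.1 at GOT1 28 and 133, and MYADML2 at PYCR1 7 and 37.42.

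The other genes of these pathways were compared as a list of 49, of which 28 were tested. Of these, 3 rose and 3 fell more than 2-fold, and the median log2 ratio was -0.03. Among all tested genes 17.0% rose and 6.41% fell more than 2-fold, and the median was 0.15. The genes that rose were ASS1, which joins aspartate to citrulline in arginine synthesis, PSAT1, a transaminase of serine synthesis, and GFPT1. ASS1 went from 2.71 to 46.07 FPKM, a log2 ratio of 4.04 (interval 3.81 to 4.28), and PSAT1 from 46.92 to 235.29 FPKM, a log2 ratio of 2.32. ASL, the enzyme after ASS1, was listed at 28.09 and 14.29 FPKM (log2 ratio -0.97). The genes that fell were SLC25A22, ODC1 and PYCR3, given above.

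For comparison, 7 of 16 enzymes of serine, glycine and folate metabolism rose and 0 fell more than 2-fold, with a median of 0.69. Of all tested genes 17.0% rose and 6.41% fell more than 2-fold, with a median of 0.15. ALDH1L2, a mitochondrial folate enzyme, had a log2 ratio of 3.71, PHGDH, the first enzyme of serine synthesis, 2.36, PSPH, its last enzyme, 2.13, and the mitochondrial folate enzymes MTHFD2 and SHMT2 1.45 and 1.13. The TCA cycle, which shares 2-oxoglutarate and oxaloacetate with the transaminases, had 21 tested genes with a median of -0.13. Beside the same shares of all tested genes, 0 of these rose and 1 fell more than 2-fold. That gene was IDH2, a mitochondrial isocitrate dehydrogenase, at 50.36 and 24.87 FPKM (log2 ratio -1.01, interval -1.10 to -0.93). IDH1, not counted as higher, had a log2 ratio of 0.995 (interval 0.90 to 1.09). Both intervals span the 2-fold line, so both TCA cycle counts turn on genes at that line. The 9 enzymes, with 5 above and 1 below 2-fold, lay nearer to the serine list in the share that rose, but the lists are small, were not tested against each other, and share PSAT1, MDH1 and MDH2 among themselves.

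Of the transcription factors looked up beside the enzymes, ATF4 rose from 406.22 to 1026.75 FPKM, a log2 ratio of 1.34 (interval 1.32 to 1.36). DDIT3, an ATF4 target that encodes the factor CHOP, went from 8.69 to 72.9 FPKM, CEBPB, a dimer partner of ATF4, from 3.62 to 19.24 FPKM, and ATF3 from 3.94 to 99.71 FPKM. MYC was listed at 456.1 and 638.78 FPKM (log2 ratio 0.49) and NFE2L2 at 27.53 and 50.36 FPKM (0.87). Their part in the levels of the 9 enzymes was not tested.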

How the data were processed

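Poly(A) RNA was read as paired ends of 150 bases, in 1 library of ARP1 cells without and 1 with Dox. For each gene the authors deposited an expected count, which need not be whole, a TPM value (scaled over effective lengths to the same sum in each library) and an FPKM value (per effective length and library total), with the mean and effective transcript length. The processing notes of the submitters name HISAT2 2.1.0, StringTie 1.3.4d, Bowtie 0.12.2 and hg19, without roles. Of 204675 listed transcripts, 202888 were in GENCODE 29 with the same version, whose GRCh38 positions are printed; they are not positions from the tables, and genes under older symbols were found through their transcripts.

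The study called genes with edgeR, which cannot estimate dispersion from 1 library per condition, so log2 ratios and 2-fold counts are given with no p-value. Genes had to reach 1 FPKM in either library, and 0.1 FPKM was added. Intervals (95%) are exact binomial (Clopper-Pearson) for ratios and exact Poisson for levels, and cover counting error only. A count of 0 is taken to allow up to 3 counts, a fixed setting apart from these intervals. edgeR 4.0.16 and DESeq2 1.42.0 in R 4.3.3 gave scaling factors from rounded counts of genes with at least 10 counts. Python 3.11.15 with pandas 2.3.3, numpy 2.4.6, scipy 1.17.1 and matplotlib 3.10.9 was used for the rest, and the ratio step was tested on simulated data. Both simulated libraries were Poisson draws from the counts without Dox, with set changes and the same effective lengths. The simulation thus checks the computation only, and not changes of effective length or variation between cultures. The members, gene lists and motifs were chosen with earlier results of these data known. Named were all members, the SRD5A genes, the listed factors, paralog and opposing enzymes, and other listed genes past 2-fold with at least 5 FPKM, besides genes of the same step given for contrast; some genes under this rule are not reported here.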

Additional observations from a re-analysis of the deposited data

How the results depend on the processing

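No paired analysis was possible because each condition has a single library. All 9 enzymes kept their sign in each of 54 values under another pseudocount or scaling, and the same number of 5 were past 2-fold upward under every alternative except the 3-fold limit, with 4. Lower members numbered 1 by FPKM, 4 with the TMM factors, 4 with the DESeq2 size factors, 4 at 1.5-fold and 0 at 3-fold. Of all 14859 tested genes, 953 were lower by FPKM, 1355 with the TMM factors and 1386 with the DESeq2 size factors. At 1.5-fold 2288 were lower and at 3-fold 312. Those higher, in the same order, numbered 2521, 1820, 1797, 4358 and 1157. The median log2 ratio of the 9 enzymes was 1.54 by FPKM, 1.64 by TPM and 1.38 by counts per library total. With the TMM factors it was 1.17 and with the DESeq2 size factors 1.16. Of called genes, 72.6% were higher by FPKM, 57.3% with the TMM factors and 56.5% with the DESeq2 size factors.

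Higher pathway neighbours numbered 6 in place of 3 with no filter, and lower ones, 3 by FPKM, numbered 5 with the TMM factors, 5 with the DESeq2 size factors, 7 at 1.5-fold and 0 at 3-fold. Lower serine and folate enzymes, 0 by FPKM, numbered 3 with the TMM factors, 3 with the DESeq2 size factors and 4 at 1.5-fold, and higher ones, 7 by FPKM, numbered 4 at 3-fold. Lower TCA cycle genes, 1 by FPKM, numbered 0 with a pseudocount of 1 FPKM, 0 by TPM, 3 with the TMM factors, 3 with the DESeq2 size factors, 5 at 1.5-fold and 0 at 3-fold, and higher ones, 0 by FPKM, numbered 1 by TPM, 1 by counts per library total and 1 at 1.5-fold. Of all tested genes, 2521 were higher and 953 lower, against 4735 and 1897 with no filter, 1256 and 603 at a minimum of 5 FPKM, 4358 and 2288 at 1.5-fold and 1157 and 312 at 3-fold; with a pseudocount of 1 FPKM 1606 were higher. The cause of these shifts was not tested, apart from the limits and filters, which change by construction how many genes can pass.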

Other observations

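The transaminase activity annotation in the deposited tables held 17 genes besides the members, of which 9 were tested. With Dox 5 of these were past 2-fold upward and 0 downward (median log2 ratio 1.09), beside 17.0% and 6.41% of all tested genes. Besides PSAT1 and GFPT1, already counted above, they included PHYKPL, which acts on phosphohydroxylysine, at 25.35 FPKM without Dox and 94.53 FPKM with Dox (log2 ratio 1.89). The others were near the floor of 1 FPKM. They were AMT, a subunit of the glycine cleavage system, at 0.90 and 2.03 FPKM, and RP11-949J7.8 at 0.75 and 2.38 FPKM. For AMT the counting interval of the log2 ratio, 0.73 to 1.47, spans the 2-fold line. The annotation thus holds genes that are not transaminases in the strict sense. The annotation cellular amino acid biosynthetic process held 51 tested genes besides the members, with 11 past 2-fold upward and 3 downward (median 0.05). The shares over all tested genes were 17.0% and 6.41%, with a median of 0.15, so these counts do not set the annotation apart. CTH, the last enzyme of cysteine synthesis by transsulfuration, went from 3 to 92.53 FPKM, CBS, the enzyme before it, from 195.1 to 584.37 FPKM, and SRR, serine racemase, from 7.58 to 19.2 FPKM. CBSL, a copy of CBS with nearly the same sequence, went from 13.03 to 40.55 FPKM, so the division of reads between both is uncertain. GAMT, which makes creatine, went from 25.86 to 12.03 FPKM and SERINC5, a serine incorporator, from 4.92 to 2.34 FPKM. These genes were picked after their values had been seen, and no list here was tested.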
